A study of Mus musculus with 3 samples.

Results

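E0771 carcinoma cells from metastasis-bearing mouse brains differed widely in how strongly they expressed interferon-stimulated genes. The cells with the highest expression, called interferon-high below, were set against the cells with the lowest, called interferon-low. Of 12908 barcodes, 12334 held 500 genes or more and a mitochondrial share of UMIs (unique transcript molecules) no higher than 15%. Of these, 10427 took at least 70% of their mouse hashtag counts from 1 hashtag. Carcinoma cells were the 4471 of these barcodes with more than 30000 UMIs, at least 5 UMIs each of Krt8 (a simple-epithelium keratin) and Rhox5 (a homeobox gene of reproductive tissue and tumours), and under 100 CPM of Tyrobp (a myeloid signalling adaptor). CPM, the usual library-size scaling of counts, was taken over all UMIs of the same cell or of the same summed cells. Each cell was scored by the summed CPM of Ifit1, Ifi44, Usp18, Rsad2, Cmpk2 and Oasl2. Cells were selected on this score within each hashtag, the upper 10% as interferon-high (450 cells) and the lower 50% as interferon-low (2236 cells). The other 1785 cells lay between. The 6 score genes fixed the groups and were left out of every count and list of genes. They stayed in the library sizes, the fit and the p-value adjustment, but their own test results are not read.

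The interferon-high and interferon-low cells came from the same animals, female C57Bl/6 mice of 2 to 3 months whose brains carried E0771, a mouse mammary carcinoma line given through the carotid artery. Some mice had received anti-VISTA and anti-PD-L1 antibodies together every other day from day 3 after injection, and others had not. The treatment of each hashtag is not identified here, so both groups mix treated and untreated brains and no treatment effect was compared. Each of 8 brain samples was stained with 35 tagged antibodies and with its own hashtag, and all were pooled in 1 capture after Percoll enrichment for immune cells, which leaves the carcinoma cells as those that passed that enrichment. The tagged antibodies and hashtags share the barcodes of the transcripts, and no barcode was listed more than once. The sources used here do not tie hashtags to single mice, and the labels differ in how many hemispheres a sample held. All p-values below therefore measure only the spread between hashtags, which may be technical.

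Interferons are secreted proteins, and cells release those of type I on sensing foreign or misplaced nucleic acid. Type I interferons bind the Ifnar1 and Ifnar2 receptor and interferon gamma binds Ifngr1 and Ifngr2. Both act through JAK kinases and STAT factors, which enter the nucleus and switch on interferon-stimulated genes. In tumours this programme is known for antigen presentation, T cell-attracting chemokines and checkpoint ligands such as PD-L1.

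The label of the cells held in part. Krt8 averaged 376 CPM and Rhox5 604 CPM over all carcinoma cells, as the selection required. Of epithelial markers the selection did not use, Krt18 was at 5.28 CPM, against 3.39 CPM in other barcodes, and had a UMI in 10.7% of cells. The others were lower than in other barcodes. Epcam, a defining epithelial adhesion molecule, was at 0.161 CPM with a UMI in 1.28% of cells, against 3.26 CPM in other barcodes. Krt19 was at 0.0260 against 0.369 CPM, and Cd24a at 0.149 against 19.9 CPM. The 4 named score markers had UMIs in 37.1% (Ifit1), 43.0% (Ifi44), 48.1% (Usp18) and 40.9% (Rsad2) of carcinoma cells. Their levels over all carcinoma cells were 46.2, 32.5, 35.6 and 45.0 CPM, each below the 192, 38.95, 106.9 and 325.5 CPM of other barcodes.

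The score spread over a wide range within every hashtag. Its median was 18.8 to 70.7 CPM over the 8 hashtags and its maximum 912 to 9523 CPM. Between 14.5 and 29.8% of carcinoma cells had no UMI of any score gene. At 1 fixed threshold, a score of at least 100 CPM was held by a median of 33.1% of carcinoma cells (25.3 to 43.8% over hashtags). The lowest share was 25.3% in hashtag 7 (95% Clopper-Pearson interval 21.0 to 30.0%) and the highest was 43.8% in hashtag 3 (40.3 to 47.4%). These intervals cover counting error only. After each cell was thinned to 30000 UMIs the median share was 36.3% (28.6 to 48.8%). Across the 7 hashtags compared below, interferon-high cells had median scores of 673 to 1615 CPM and interferon-low cells had median scores of 0 to 16.5 CPM. The thresholds cut through a continuous range. In hashtag 5 the lowest interferon-high score was 357.6 CPM and the next score below it was 357.4 CPM, and the highest interferon-low score was 22.9 CPM with the next above it at 23.1 CPM.

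**Figure D1:**
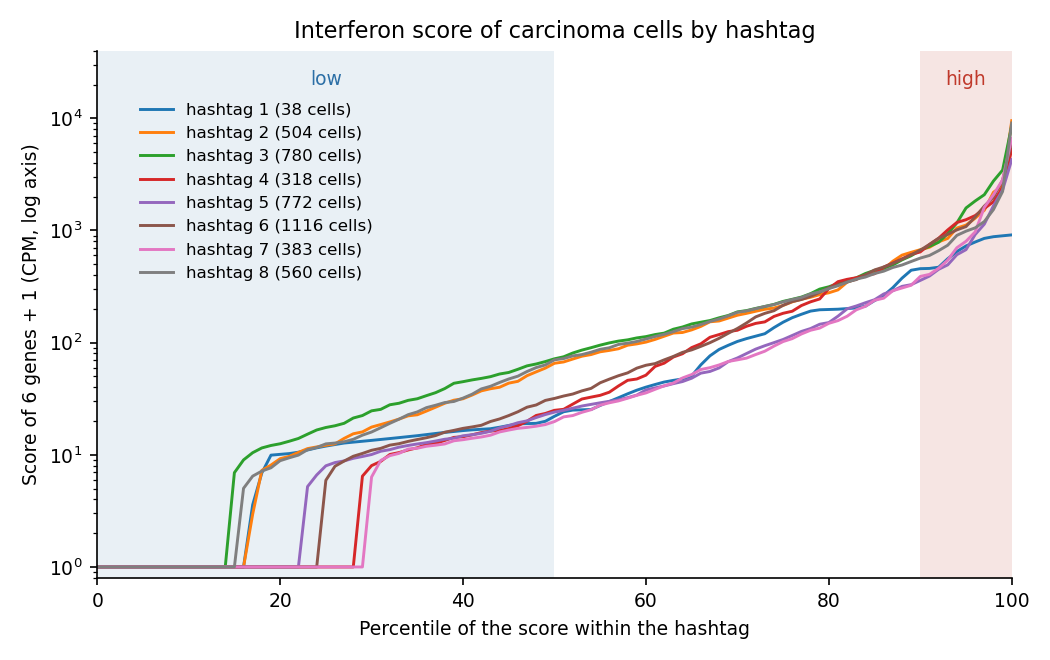
Interferon score of carcinoma cells, as summed CPM of 6 genes plus 1 on a log axis, against the percentile of the score within each of 8 hashtags; shading marks the interferon-high cells (upper 10%) and interferon-low cells (lower 50%). Each curve rises without a step from the cells with no UMI of a score gene to maxima between 912 and 9523 CPM.

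Counts were summed per hashtag and group and compared with the edgeR quasi-likelihood test with hashtag as block and Benjamini-Hochberg adjustment over all genes. Hashtag 1 had only 4 interferon-high cells and was left out, so 446 interferon-high and 2217 interferon-low cells of 7 hashtags entered. The sums held 2420493 to 8832876 UMIs per hashtag in interferon-high cells and 14479469 to 50146766 UMIs in interferon-low cells. Median UMIs per cell were 70856 to 98700 in interferon-high cells and 75655 to 107749 in interferon-low cells over these hashtags. Of 10884 genes tested, 1188 rose in interferon-high cells (10.9%) and 1000 fell (9.19%). With library totals alone in place of TMM scaling, 1026 genes rose and 1314 fell. Without the hashtag block, 690 rose and 287 fell. The median log2 fold change of all genes was 0.00, and 202 genes rose and 4 fell at least 2-fold. In 321 genes (2.95%) every hashtag's interferon-high value lay above every interferon-low value. Only genes outside the score are counted.

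**Figure D2:**
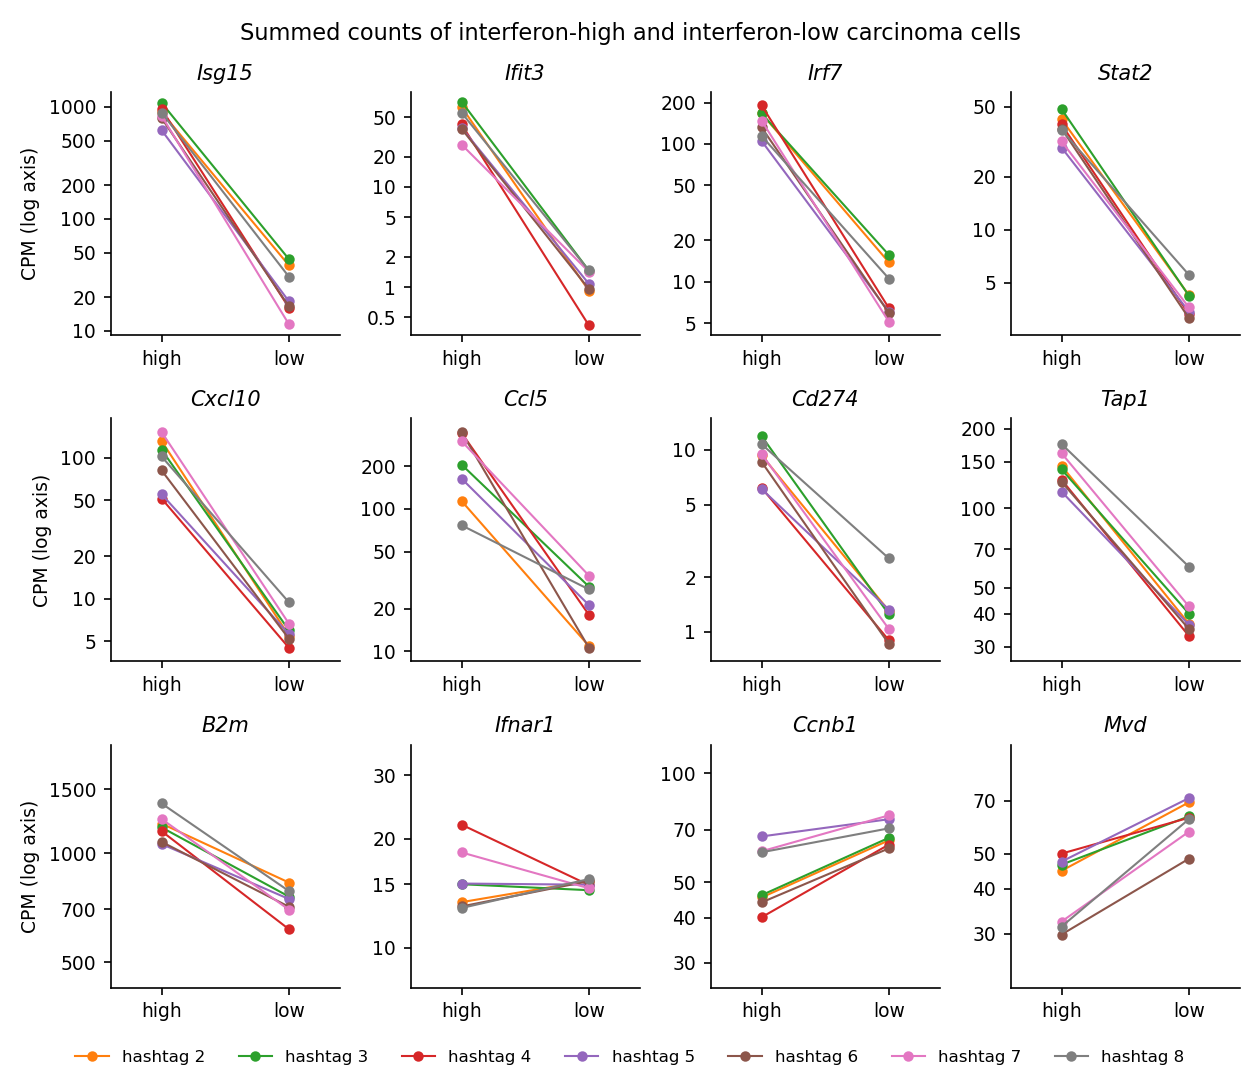
CPM (log axis) of 12 genes in summed interferon-high cells (left in each panel) and interferon-low cells (right), with 1 line per hashtag for 7 hashtags. The groups do not overlap for Isg15, Ifit3, Irf7, Stat2, Cxcl10, Ccl5, Cd274, Tap1 and B2m, overlap for Ifnar1 and Mvd, and for Ccnb1 every hashtag is lower in interferon-high cells although the ranges overlap.

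The 4 receptor chains of type I interferon and interferon gamma did not pass the test, while some of the factors that act below them rose. Ifnar1 had 12.9 to 21.9 CPM (median 14.996) in interferon-high cells, against 14.4 to 15.5 CPM (median 14.95) in interferon-low cells. Its groups overlapped, and the log2 fold change was 0.02 (SE 0.09, adjusted p = 0.913). Ifnar2, Ifngr1 and Ifngr2 had log2 fold changes of 0.09, 0.05 and 0.12 with adjusted p of 0.438, 0.681 and 0.298. Stat2, a factor of the complex that type I interferon forms, had 29.3 to 48.5 CPM (median 37.6) in interferon-high cells, against 3.15 to 5.55 CPM (median 3.62) in interferon-low cells. No hashtag overlapped, and Stat2 rose by a log2 fold change of 3.29 (SE 0.10, adjusted p = 9.60e-14). Irf9, its partner in that complex, rose by 1.95 on the log2 scale. Of 12 receptor and JAK-STAT genes tested, 5 rose and 0 fell (median log2 fold change 0.14), against 10.9% of all genes that rose. Jak1 and Tyk2, kinases of the type I receptor, were among those that did not pass, at 0.09 and -0.01. Jak2, a kinase of the interferon gamma receptor, and Stat3 rose by 0.70 and 0.52.

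Among interferon regulatory factors, which bind interferon-response DNA elements, 5 of 8 tested rose and 0 fell (median log2 fold change 0.45). Of all genes tested, 10.9% rose. Irf7, which amplifies type I interferon production, had 105 to 191 CPM (median 148) in interferon-high cells, against 5.11 to 15.6 CPM (median 6.42) in interferon-low cells. The groups were far apart in every hashtag, with a log2 fold change of 4.03 (SE 0.15, adjusted p = 1.72e-12). Irf5 rose by 2.37 and Irf1, a factor strongly induced by interferon gamma, rose by 1.51 on the log2 scale. Irf3, which is held ready as a protein and is not known as an interferon-induced transcript, had 22.6 CPM in both groups (means, n = 7 hashtags each; log2 fold change 0.04, adjusted p = 0.757).

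The list of feedback and ISG15-pathway genes also held many rises (median log2 fold change 0.57). In it 7 of 12 tested rose and 0 fell, against 10.9% of all genes that rose. Isg15, a ubiquitin-like protein that is attached to other proteins, had 619 to 1085 CPM (median 888) in interferon-high cells, against 11.5 to 43.7 CPM (median 18.3) in interferon-low cells. Its groups did not overlap, and its log2 fold change was 5.20 (SE 0.16, adjusted p = 1.58e-13). The enzymes that attach it rose too: Uba7, its activating enzyme, by 3.14, Ube2l6, its conjugating enzyme, by 2.96, and Herc6, its ligase in mice, by 3.21 on the log2 scale. Socs1, an inhibitor of JAK kinases, averaged 36.8 ± 4.91 CPM in interferon-high cells and 22.3 ± 1.65 CPM in interferon-low cells (SD, n = 7 hashtags each), a log2 fold change of 0.74 (adjusted p = 7.13e-07). Nlrc5, a transactivator of MHC class I genes, rose by 1.44.

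Sensors of nucleic acid were higher as a group. Of 17 tested, 16 rose and 0 fell, with a median log2 fold change of 2.79, against 10.9% of all genes tested that rose. Ddx60, an RNA helicase that assists RNA sensing, had 26.5 to 43.0 CPM (median 32.1) in interferon-high cells, against 0.207 to 0.867 CPM (median 0.637) in interferon-low cells. The log2 fold change was 5.79 (SE 0.14, adjusted p = 1.70e-14). The viral RNA sensors Ifih1 (MDA5) and Ddx58 (RIG-I) rose by 3.92 and 2.79 on the log2 scale, their regulator Dhx58 (LGP2) by 4.31, the Z-nucleic acid sensor Zbp1 by 4.11, and the double-stranded RNA-activated kinase Eif2ak2 (PKR) by 2.22.

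Antiviral effectors formed the longest list, with a median log2 fold change of 2.71. Of 51 tested, 48 rose and 0 fell, against 10.9% of all genes that rose. In 44 of them no hashtag's interferon-high value overlapped the interferon-low values, against 2.95% of all genes. Ifit3, which takes part in binding foreign RNA, had 26.5 to 71.1 CPM (median 42.1) in interferon-high cells, against 0.414 to 1.46 CPM (median 1.08) in interferon-low cells, a log2 fold change of 5.43 (SE 0.14, adjusted p = 1.70e-14). Oasl1, a relative of the 2-5A synthetases, rose by 5.36 and Rtp4, a receptor-transporter family member, by 4.66. Trim30a, Trim30d, Phf11d, Apol9a and Oas1g rose by 4.93, 4.81, 5.405, 4.46 and 4.397. These belong to families of near-identical neighbours (as do the Gbp and Ifit1bl genes), where the authors' counting could have split reads, so single members are uncertain. Ifit1bl2 had 3 UMIs in all interferon-low cells together, and 0.883 to 2.26 CPM in interferon-high cells. Its fitted log2 fold change of 6.05 depends on the offset given to low counts. Bst2 (tetherin, which holds budding virus at the cell surface) was already abundant in interferon-low cells: it had 1831 to 2573 CPM (median 2391) in interferon-high cells, against 677 to 1070 CPM (median 906) in interferon-low cells. It had a UMI in every cell of both groups after thinning, and rose by 1.37 (SE 0.06, adjusted p = 8.40e-12). Ifitm3, which blocks virus entry, rose by 1.21.

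All 13 interferon-inducible GTPases that were tested rose (median log2 fold change 4.33), against 10.9% of all genes. They act on the vacuoles of intracellular pathogens, and the guanylate-binding and immunity-related groups are known for their response to interferon gamma. Gbp5 had 15.3 to 37.4 CPM (median 29.0) in interferon-high cells, against 0 to 2.20 CPM (median 0.323) in interferon-low cells, a log2 fold change of 5.53 (SE 0.28, adjusted p = 1.07e-10). Gm4951, Iigp1 and Ifi47, of the immunity-related group, rose by 6.05, 4.78 and 4.60, and Gbp3 and Gbp2 by 4.59 and 3.84. Iigp1 varied most between hashtags: its interferon-high values ran from 14.6 to 99.96 CPM and its interferon-low values from 0.207 to 7.69 CPM. All 10 tested PARP-family genes and partners rose as well (median log2 fold change 2.06), with Parp14 at 4.35, Parp9 at 3.07, its partner Dtx3l at 3.00 and Parp10 at 2.20.

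The promoters of these genes were searched for the DNA elements that STAT and IRF factors are known to bind. A pair of motifs was searched on both strands of RefSeq promoter sequences (250 bases before to 50 after each start, build GRCm38.p6), counting overlapping matches: GAAANNGAAA, the core of the interferon-stimulated response element, and TTCNNNGAA, the gamma-activated site, which is its own reverse complement. Of the 10884 genes tested, 8486 matched a promoter by symbol. The response element core stood in 34.8% of the 161 matched genes that rose at least 2-fold, in 11.4% of the 920 matched genes that rose, in 2.92% of the 787 that fell, in 3.82% of all matched tested genes and in 3.99% of all 27025 genes of the table. The gamma-activated site stood in 16.1% of genes that rose at least 2-fold and in 8.05% of matched tested genes. By list, the core stood in 7 of 8 matched GTPases, 21 of 44 antiviral effectors, 7 of 12 sensors and 5 of 18 MHC class I genes. It stood in 1 of 7 PARP-family genes, 2 of 10 feedback genes, 1 of 10 receptor and JAK-STAT genes, 1 of 8 regulatory factors, 2 of 12 chemokines and cytokines and 1 of 13 NF-kappaB targets. A match describes letters in this window only. The stretches below carry the core in capitals with 20 bases on each side where the window allows, 5′ to 3′ on the gene's strand, and are shown for genes whose values are given here. Isg15 (chr4:156200855-156200916, minus strand) holds 3 overlapping cores from 78 bases before its start, and Ddx60 (chr8:61928014-61928097, plus) holds 2. Ifit3 (chr19:34583353-34583436, plus) holds 2 in the reverse direction. Ifit1bl2 (chr19:34640765-34640833, minus) shares its stretch, read on the other strand, with the score gene Ifit1. Cxcl10 (chr5:92349073-92349122, minus) and B2m (chr2:122147528-122147577, plus) hold 1 each.
Isg15: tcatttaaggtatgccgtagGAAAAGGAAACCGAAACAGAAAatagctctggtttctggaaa
Ddx60: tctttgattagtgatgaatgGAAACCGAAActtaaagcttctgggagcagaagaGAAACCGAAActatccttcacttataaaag
Ifit3: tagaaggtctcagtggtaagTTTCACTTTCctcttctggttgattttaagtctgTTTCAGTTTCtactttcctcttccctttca
Ifit1bl2: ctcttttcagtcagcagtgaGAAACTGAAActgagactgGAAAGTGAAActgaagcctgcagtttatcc
Cxcl10: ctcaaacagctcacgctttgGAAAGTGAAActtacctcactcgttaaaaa
B2m: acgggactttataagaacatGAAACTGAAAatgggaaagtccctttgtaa
Cd274, Irf7, Irf1, Tap1 and Psmb9 had no match of the core in this window.

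Class I antigen presentation, by which cells show peptides of their own proteins to CD8 T cells, was higher in several of its steps. Of 20 genes tested, 15 rose and 0 fell (median log2 fold change 0.80), against 10.9% of all genes that rose. Tap1, a subunit of the peptide transporter, had 116 to 175 CPM (median 141) in interferon-high cells, against 32.9 to 60.2 CPM (median 36.6) in interferon-low cells. The groups did not overlap, and the log2 fold change was 1.83 (SE 0.05, adjusted p = 8.22e-14). The immunoproteasome subunits Psmb9, Psmb10 and Psmb8 rose by 1.67, 1.58 and 1.27 on the log2 scale. The constitutive proteasome subunits did not follow: 0 of 14 passed in either direction by edgeR, with log2 fold changes between -0.10 and 0.04, and Psma1 at 163 CPM in interferon-high cells and 177 CPM in interferon-low cells had the most negative value. The tapasin gene Tapbp rose by 1.42, and H2-T22, a nonclassical class I gene, by 1.56. The abundant chains changed less in proportion. B2m, the light chain, had 1059 to 1371 CPM (median 1178) in interferon-high cells, against 617 to 830 CPM (median 747) in interferon-low cells, a log2 fold change of 0.70 (SE 0.05, adjusted p = 4.41e-09). H2-K1 and H2-D1, the classical heavy chains, rose by 0.73 and 0.60. The general chaperones Calr, Pdia3 and Canx of the same list had log2 fold changes of -0.03, 0.01 and -0.06 and did not pass.

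Class II presentation, normally a property of professional antigen-presenting cells, gave 1 rise and 0 falls among 6 tested genes, against 10.9% of all genes that rose. H2-Aa had 6.80 to 24.3 CPM in interferon-high cells, against 6.40 to 11.2 CPM in interferon-low cells, and was higher in 5 of 7 hashtags with overlapping groups (log2 fold change 0.65, adjusted p = 0.0350). The widest gap was in hashtag 5, at 24.3 CPM in interferon-high cells and 6.89 CPM in interferon-low cells, while hashtag 8 had 8.48 and 11.2 CPM. In these hashtags immune markers differed in the same direction as H2-Aa. In hashtag 5, CD45 antibody tags were at 190 per interferon-high cell and 93.1 per interferon-low cell, and summed T and NK cell markers at 53.2 and 20.3 CPM. In hashtag 8 they were at 56.1 and 147 tags and at 23.8 and 41.8 CPM. Not every hashtag followed. In hashtag 4, H2-Aa was at 11.2 CPM in interferon-high and 7.04 CPM in interferon-low cells, with CD45 tags at 34.75 and 36.93 per cell. In hashtag 2, H2-Aa was at 6.80 and 7.05 CPM, with T and NK cell markers at 17.4 and 5.14 CPM. The part of immune cells in the result was not tested. Cd74, the invariant chain, had a log2 fold change of 0.59 (adjusted p = 0.0752).

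Chemokines and cytokines included some of the largest changes among secreted products, with a median log2 fold change of 1.20. Here 11 of 16 tested rose and 0 fell, against 10.9% of all genes that rose. Cxcl10, which attracts T and NK cells through CXCR3, had 51.2 to 151 CPM (median 102) in interferon-high cells, against 4.49 to 9.43 CPM (median 5.61) in interferon-low cells. No hashtag overlapped, and Cxcl10 rose by a log2 fold change of 3.96 (SE 0.13, adjusted p = 4.25e-13). Ccl5, which also attracts T cells, had 76.8 to 346 CPM (median 205) in interferon-high cells, against 10.6 to 34.1 CPM (median 21.2) in interferon-low cells, a log2 fold change of 3.30 (SE 0.27, adjusted p = 1.14e-07). The monocyte attractants Ccl7 and Ccl2 rose by 2.06 and 1.93, and Csf1, the macrophage growth factor, by 1.01. Tnfsf10 (TRAIL, a death ligand) rose by 4.68, Tnf by 2.00 and Il18 by 1.89. Cxcl9, best known as an interferon gamma target, rose by 1.39 at a low level of 3.61 CPM in interferon-high cells and 1.2996 CPM in interferon-low cells. Vegfa rose by 0.37, and Tgfb1 did not pass (log2 fold change -0.08, adjusted p = 0.270).

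Cxcl10 had a UMI in 43.6% of interferon-high cells and 16.3% of interferon-low cells after thinning to 30000 UMIs (medians of 7 hashtags), and in 63.4 and 40.9% without thinning. Tyrobp, which carcinoma cells should lack and whose UMIs show the reach of free RNA or of other cells, had a UMI in 17.9 and 16.7% after thinning and in 43.8 and 42.2% without. The interferon-low share of Cxcl10 was no higher than that of Tyrobp and is not read as expression. Tyrobp is another gene, limited by the selection, and the share that free Cxcl10 RNA alone would give was not measured. Cells with a Ccl5 UMI after thinning were 41.0% of interferon-high and 22.04% of interferon-low cells. Isg15 was found in 100% of thinned interferon-high cells and 32.9% of thinned interferon-low cells.

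Interferon transcripts themselves were rare and stood in few cells. No interferon gene passed the filter on low counts, so none was tested. Ifnb1, the interferon beta gene, had 59 UMIs in interferon-high cells, 3 in cells between and 3 in interferon-low cells. It was seen in 7 of 450 interferon-high cells (1.56%, Clopper-Pearson interval 0.628 to 3.18%), in 3 of 1785 cells between (0.168%, 0.0347 to 0.490%) and in 3 of 2236 interferon-low cells (0.134%, 0.0277 to 0.392%). The intervals pool cells of all hashtags and cover counting error only. A pair of interferon-high cells held most of the UMIs. The first, from hashtag 3, had 27 Ifnb1 UMIs and a score of 7290 CPM, and the second, from hashtag 2, had 24 Ifnb1 UMIs and a score of 4619 CPM. Neither had a UMI of Tyrobp or Ptprc (CD45), and they had 741 and 427 CPM of Krt8. The other cells with Ifnb1 had 1 to 3 UMIs each. Barcodes outside the carcinoma cells held 440 Ifnb1 UMIs, at 2.04 CPM against 0.1535 CPM over all carcinoma cells. All 30 Ifnl3 UMIs (interferon lambda 3) came from 1 interferon-high cell of hashtag 6 with a score of 6116 CPM, which also had 1 Ifnb1 UMI. Ifng had 198 UMIs in all carcinoma cells, 12 of them in interferon-high cells and 91 in interferon-low cells. These are raw counts, and in the 7 hashtags compared the groups held 38578965 and 216676946 gene UMIs. As a level, Ifng was at 0.468 CPM over all carcinoma cells and at 13.3 CPM in barcodes outside them.

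The levels were followed over 10 deciles of the score within each hashtag, with tied scores in random order. Isg15 climbed in steps across the upper deciles, with medians over hashtags of 14.8 CPM in decile 1, 25.8 in decile 5, 75.2 in decile 6, 253 in decile 8, 390 in decile 9 and 888 CPM in decile 10. Ccl2 was at 65.5 CPM in decile 5, 95.9 in decile 6, 162 in decile 9 and 314 CPM in decile 10. Cxcl10 stood between 5.29 and 6.44 CPM in deciles 1 to 6, was 11.8 CPM in decile 9 and 102 CPM in decile 10. Cd274, the PD-L1 gene, was at 2.46 CPM in decile 9 and 9.46 CPM in decile 10. Ccl5 was at 38.2 and 205 CPM in those 2 deciles, after 77.1 CPM in decile 7, where hashtags differed most. B2m differed in small steps, with 705 CPM in decile 1 and 1178 CPM in decile 10. The deciles are made from the score and are a description with no test.

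**Figure D3:**
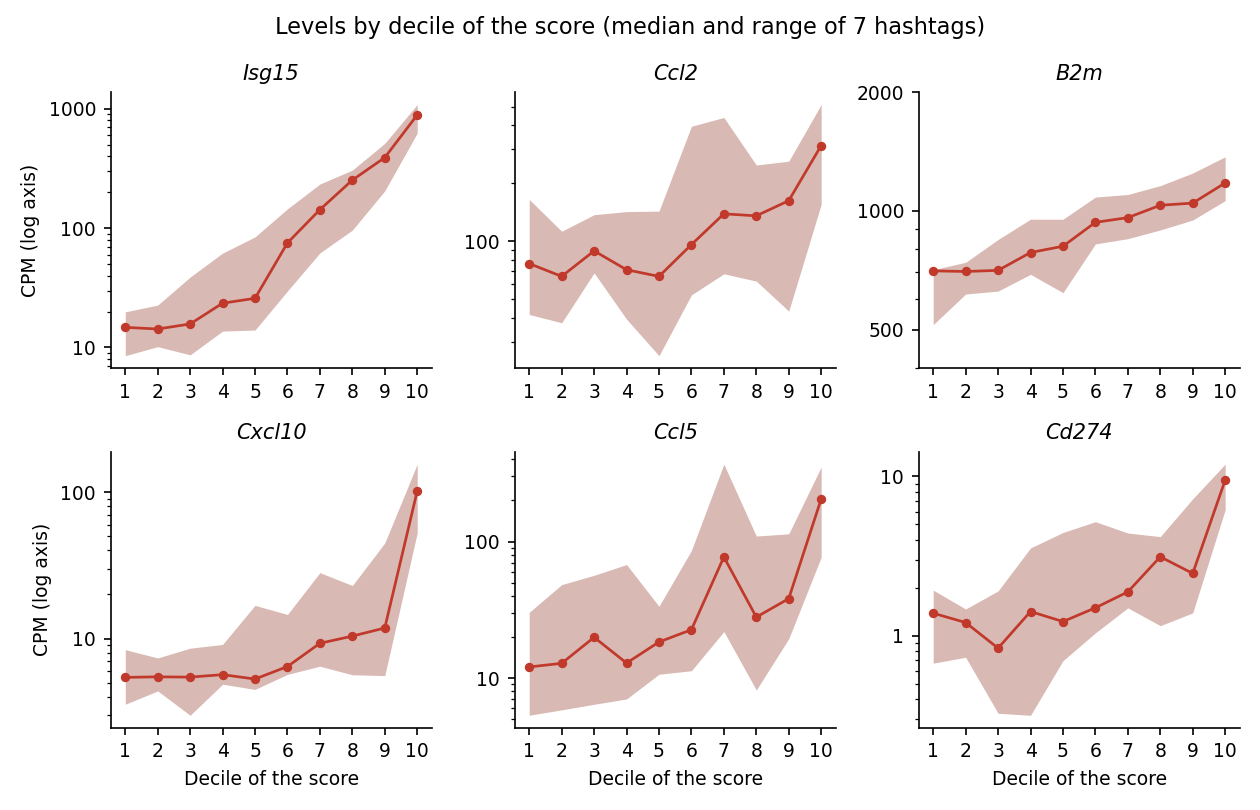
CPM (log axis) of Isg15, Ccl2, B2m, Cxcl10, Ccl5 and Cd274 against decile of the score from lowest (1) to highest (10); lines are medians of 7 hashtags and bands their range. Isg15 climbs from decile 5 on, while Cxcl10 reaches 11.8 CPM in decile 9 and 102 CPM in decile 10.

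Checkpoint ligands and immune-evasion genes moved both ways, with 8 of 13 tested rising and 4 falling (median log2 fold change 0.25). Of all genes tested, 10.9% rose and 9.19% fell. Cd274 encodes PD-L1, the ligand that restrains T cells through PD-1 and a target of the study's treatment. It had 6.10 to 11.9 CPM (median 9.35) in interferon-high cells, against 0.857 to 2.53 CPM (median 1.246) in interferon-low cells. Every hashtag was higher with no overlap, and Cd274 rose by a log2 fold change of 2.80 (SE 0.18, adjusted p = 2.94e-09). Vsir encodes VISTA, the other target. It had 5.90 to 12.4 CPM (median 9.35) in interferon-high cells, against 5.90 to 8.93 CPM (median 7.199) in interferon-low cells, higher in 5 of 7 hashtags (log2 fold change 0.40, SE 0.13, adjusted p = 0.0324). Lgals9 (galectin-9, a ligand of TIM-3) rose by 1.88, the phagocytosis-inhibiting ligand Cd47 by 0.57 and the B7 family member Cd276 by 0.45. Ulbp1 and Raet1e, ligands that activate NK cells, fell by 0.41 and 0.23 on the log2 scale, Hmgb1 fell by 0.23 and Lgals1 (galectin-1) fell by 0.18.

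The antibody tags gave a second readout of the same cells at the protein level, one that the score did not use. The PD-L1 antibody carried the 15-base tag below, whole in capitals as it was counted.
PD-L1 antibody tag: TCGATTCCACCAACT
PD-L1 tags per cell were 8.38 to 28.9 (median 19.4) in interferon-high cells, against 1.39 to 7.32 (median 5.44) in interferon-low cells. Hashtags 2 to 8 had 19.4, 22.5, 16.5, 19.8, 15.4, 8.38 and 28.9 tags per interferon-high cell, against 7.32, 6.74, 4.20, 6.08, 4.34, 1.39 and 5.44 per interferon-low cell. Every hashtag was higher in interferon-high cells and the groups did not overlap, with hashtag 7 lowest in both. As a share of all tags the log2 ratio was 1.84 ± 0.37 (SD, n = 7 hashtags). The exact two-sided sign-flip permutation test gave p = 0.0156, the smallest that 7 pairs allow, and 0.25 after adjustment over 32 tags. By this test 0 of 32 tags passed (0%), with 3 at an unadjusted p under 0.05, and so few tags at the smallest p cannot pass the adjustment. Another 3 of the 35 tags had too few counts for a ratio. In the edgeR quasi-likelihood test on tag counts, chosen after the data were seen, PD-L1 alone passed (1 of 32 tags, 3.12%), with a log2 fold change of 1.93 (SE 0.17, adjusted p = 4.01e-05). Whether treatment antibody already bound to PD-L1 changed the tag counts in treated brains cannot be told apart, since hashtags carry no treatment label.

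**Figure D4:**
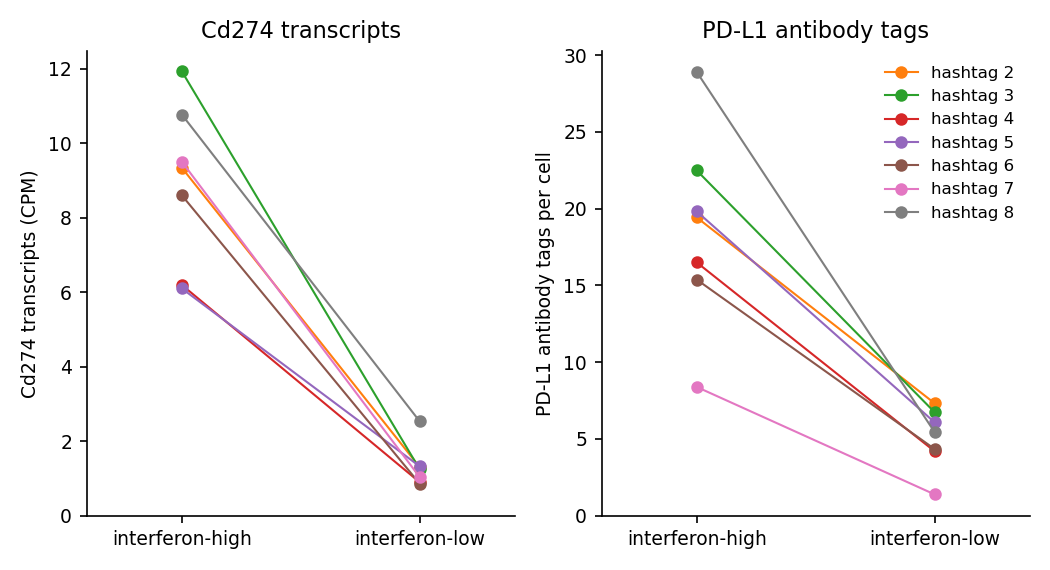
Cd274 transcripts in CPM of summed cells (left panel) and PD-L1 antibody tags per cell (right panel) in interferon-high cells (left in each panel) and interferon-low cells, with 1 line per hashtag for 7 hashtags. Both readouts are higher in interferon-high cells of every hashtag, with 8.38 to 28.9 tags per cell against 1.39 to 7.32.

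CD38, an NAD-consuming surface enzyme, was lower as a share of tags in interferon-high cells of 7 of 7 hashtags, at a log2 ratio of -0.35 with an exact permutation p of 0.0156 and an adjusted p of 0.25. In tags per cell it was lower in 6 of 7 hashtags, and it did not pass in edgeR (adjusted p = 0.217). CD45 and MHC class II (I-A-I-E) tags, which mark immune cells, differed in both directions between hashtags. Hashtags 5 and 7 had 161 and 210 I-A-I-E tags per interferon-high cell, against 44.5 and 25.4 per interferon-low cell, and hashtag 8 had 28.7 against 97.8.

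Targets of NF-kappaB, the inflammatory transcription factor, rose with the score: 14 of 15 tested rose and 0 fell, with a median log2 fold change of 0.71, against 10.9% of all genes. Icam1, the adhesion ligand of leukocytes, averaged 52.3 ± 23.7 CPM in interferon-high cells and 18.8 ± 7.56 CPM in interferon-low cells (SD, n = 7 hashtags each), a log2 fold change of 1.505 (adjusted p = 2.70e-06). The inhibitors Nfkbie and Nfkbia, which NF-kappaB itself induces, rose by 1.47 and 0.92, and Atf3, a stress-induced factor, by 1.07. Sod2 had a log2 fold change of -0.03 and did not pass.

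Cell death genes gave 10 rises and 1 fall among 18 tested (median log2 fold change 0.33), against 10.9% and 9.19% of all genes. The death receptor Fas had 11.4 to 28.5 CPM (median 19.96) in interferon-high cells, against 2.19 to 9.19 CPM (median 3.55) in interferon-low cells, a log2 fold change of 2.19 (SE 0.17, adjusted p = 4.78e-08). The inflammatory caspases Casp4, Casp12 and Casp1 rose by 1.81, 1.41 and 0.98, the pore-forming Gsdmd by 0.67 and the necroptosis effector Mlkl by 0.64. Of 14 stress-response genes tested, 5 rose and 0 fell (median log2 fold change 0.10), against the same shares of all genes. Among the rises were Ddit3 (CHOP) by 1.246 and Trib3 by 0.68, while the endoplasmic reticulum chaperone Hspa5 did not pass (log2 fold change 0.05).

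**Figure D5:**
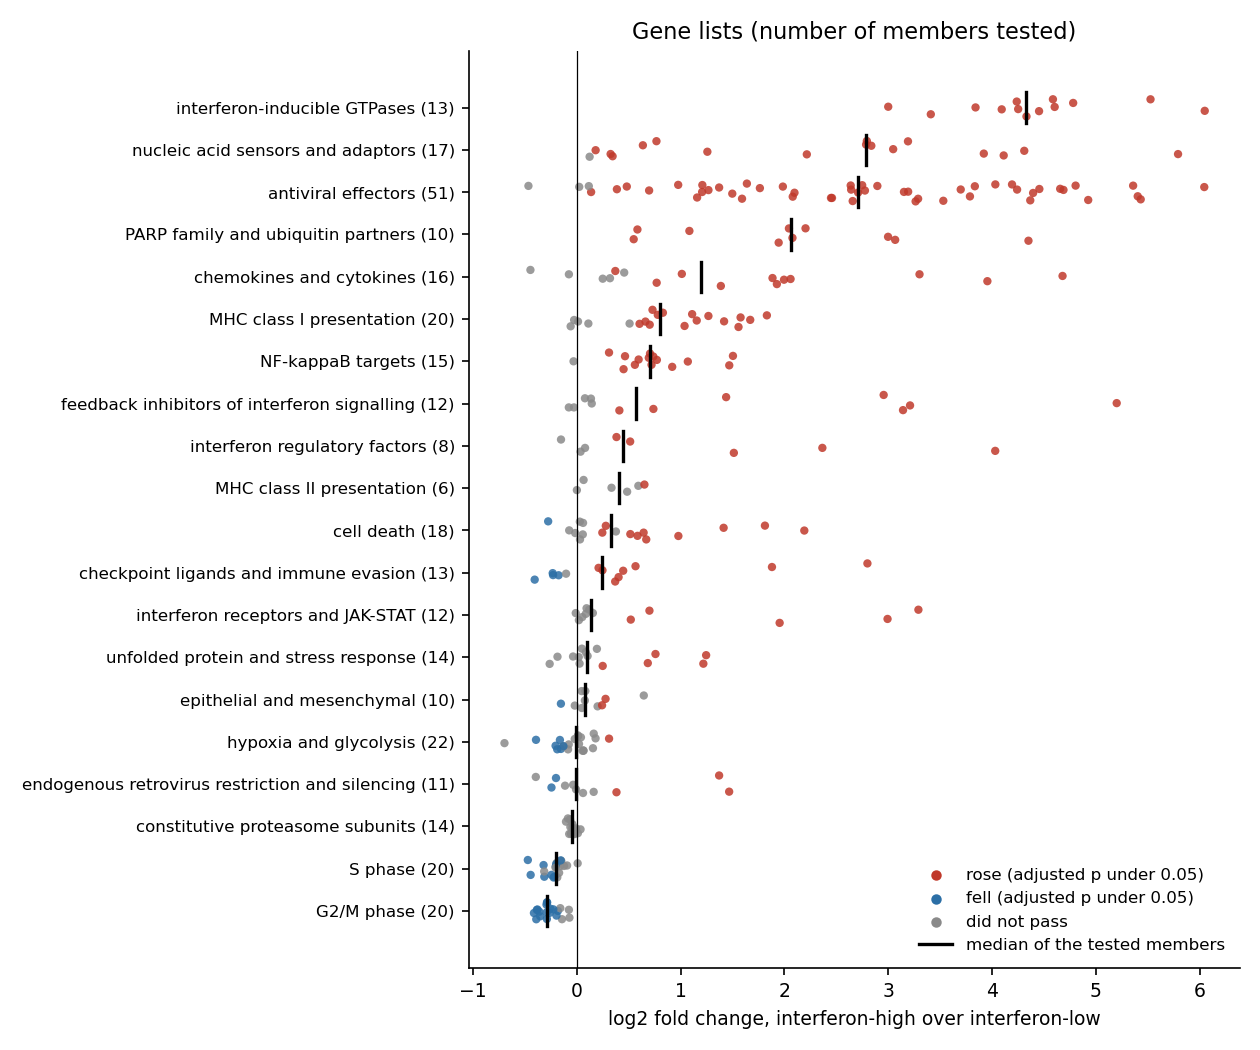
Log2 fold change of interferon-high over interferon-low cells for each tested member of 20 pathway lists, 1 point per gene, with lists ordered by their median (black bars). The interferon-inducible GTPases have the highest median (4.33), the constitutive proteasome subunits lie within -0.10 and 0.04, and the G2/M phase list has the lowest median (-0.29).

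Genes that fell did so by less. Only 4 genes fell at least 2-fold: Fabp4, Ptcra, Cygb and Hoxb13 by 1.46, 1.16, 1.11 and 1.06 on the log2 scale, of which only Ptcra exceeded 10 CPM. Ptcra, which encodes the pre-T cell receptor alpha chain of thymocytes, had 2.48 to 8.28 CPM (median 4.52) in interferon-high cells, against 5.94 to 16.5 CPM (median 12.5) in interferon-low cells. It was lower in 7 of 7 hashtags although the ranges overlapped (log2 fold change -1.16, SE 0.13, adjusted p = 4.32e-06). Rbp7 (a retinol-binding protein), Polr3g (an RNA polymerase III subunit), Tmem267, Lrr1 and Sgsm1 fell by 0.86, 0.78, 0.71, 0.61 and 0.60.

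Sterol synthesis genes made up 4 of the 10 largest falls chosen by the naming rule: Acat2, Mvd, Cyp51 and Idi1. Mvd, an enzyme of the mevalonate pathway, had 29.9 to 49.99 CPM (median 44.8) in interferon-high cells, against 48.4 to 71.1 CPM (median 62.8) in interferon-low cells. It was lower in 7 of 7 hashtags, with overlapping ranges and a log2 fold change of -0.62 (SE 0.06, adjusted p = 1.17e-06). A list of 20 cholesterol synthesis enzymes, written after these falls were seen and so not independent of them, held 17 falls and 0 rises (median log2 fold change -0.38), against 9.19% of all genes that fell. Hmgcs1 and Sqle fell by 0.55 and 0.45. The summed level of the list had a median of 1802 CPM in decile 1 of the score, 1262 in decile 6 and 1234 CPM in decile 10.

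Cell cycle genes were modestly lower. Of 20 S phase genes, 10 fell and 0 rose (median log2 fold change -0.20), and of 20 G2/M genes, 16 fell and 0 rose (median -0.29), against 9.19% of all genes that fell. Ccnb1, the mitotic cyclin, had 40.1 to 67.0 CPM (median 46.1) in interferon-high cells, against 62.1 to 76.6 CPM (median 66.4) in interferon-low cells. It was lower in 7 of 7 hashtags, by 0.38 on the log2 scale (SE 0.06, adjusted p = 3.59e-04). Birc5, Mki67 and Cenpa, markers of dividing cells, fell by 0.39, 0.39 and 0.41, and the S phase genes Cdc6 and Rrm2 by 0.47 and 0.44. UMIs per cell moved with these genes: the median was lower in interferon-high cells in each of the 7 hashtags, and its part in the result was tested only by the values that follow. With cells ranked within 4 bins of UMI depth, 8 S phase and 8 G2/M genes fell. Among cells with at most 100000 UMIs, 17 S phase and 5 G2/M genes fell, and with only cells under 20 CPM of 4 summed immune genes, 6 and 3 fell. Over all genes, 886 fell with the depth bins, 959 at 100000 UMIs and 228 under 20 CPM of immune genes. In the main fit 1000 fell, so the list counts are not read apart from these totals.

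Hypoxia and glycolysis genes gave 6 falls and 1 rise among 22 tested (median log2 fold change 0.00). Of all genes tested, 9.19% fell and 10.9% rose. Egln3, an oxygen-sensing hydroxylase, fell by 0.39 and Ldha, the lactate dehydrogenase, by 0.20, while Hk2, a hexokinase, rose by 0.31. Among 10 tested epithelial and mesenchymal genes, 2 rose and 1 fell (median log2 fold change 0.08), against 10.9% and 9.19% of all genes. Nothing particular to that list is read from so few calls. Zeb2 and Zeb1, repressors of epithelial genes, rose by 0.28 and 0.24, and Vim, the mesenchymal filament, fell by 0.15. In the list of retrovirus restriction and silencing genes, 3 of 11 rose and 2 fell, against 10.9% and 9.19% of all genes, and nothing particular to the list is read from these counts. The rises were Apobec3 (a DNA deaminase, by 1.47), Bst2 and Morc3 (by 0.38), and the falls were Ezh2 and Uhrf1, which the S phase list also holds. Setdb1, Trim28 and Dnmt1, which silence retroviral sequences, had log2 fold changes of 0.16, -0.01 and -0.11 and did not pass.

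Of the markers of other cell types, few single genes passed the test, but some summed levels differed between the groups. The summed level of 18 myeloid markers was 86.1 to 126 CPM in interferon-high cells and 80.4 to 113 CPM in interferon-low cells, and 0 of 17 tested passed in either direction (median log2 fold change 0.17). Microglia (2 tested), neutrophil (2), dendritic cell (1), T and NK cell (8), B cell (1) and neural and choroid markers (3) gave 0 calls as well. Summed microglia markers were at 21.0 to 28.6 CPM in interferon-high cells and 21.3 to 26.5 CPM in interferon-low cells over hashtags, and neutrophil markers at 3.93 to 7.02 and 4.59 to 9.47 CPM. T and NK cell markers were at 7.44 to 53.2 CPM in interferon-high cells and 4.07 to 41.8 CPM in interferon-low cells, and B cell markers at 0.826 to 4.64 and 1.75 to 4.66 CPM. Dendritic cell markers had a median of 2.83 CPM in interferon-high cells, reaching 22.9 CPM in 1 hashtag, and of 1.85 CPM in interferon-low cells, reaching 2.44 CPM. Every myeloid marker had a UMI in both groups, and each was far below its level in other barcodes, with Lyz2 at 13.1 CPM over all carcinoma cells against 3520 CPM. Of 5 tested endothelial markers 1 passed: Ly6c1 rose by 1.75 (23.9 CPM in interferon-high cells and 7.42 CPM in interferon-low cells), while Cldn5, Pecam1, Cdh5 and Flt1 did not pass. Pdgfrb, the 1 mural marker tested, rose by 0.40. The summed endothelial markers were at 16.1 to 46.7 CPM (median 36.1) in interferon-high cells and 6.22 to 30.7 CPM (median 11.2) in interferon-low cells, higher in 7 of 7 hashtags. The summed mural and fibroblast markers were at 15.2 to 29.2 CPM (median 22.3) and 14.1 to 26.1 CPM (median 16.5), also higher in 7 of 7. This sum was mostly Pdgfrb, at 17.25 CPM over all carcinoma cells against 13.95 CPM in other barcodes, with a UMI in 69.5% of carcinoma cells. No other member exceeded 0.756 CPM (Rgs5) over all carcinoma cells, so the sum is not read as a level of mural cells or fibroblasts. Neural and choroid markers, mostly Ttr of the choroid plexus, moved both ways. They were at 742 CPM in interferon-high cells and 23.4 CPM in interferon-low cells of hashtag 6, at 243 and 20.2 CPM in hashtag 2, and at 16.1 and 295 CPM in hashtag 8. The part of these cell types in the results was not tested. With only cells under 20 CPM of summed Tyrobp, Ptprc, Fcer1g and Lyz2, 161 interferon-high and 796 interferon-low cells remained, and 498 genes rose and 228 fell. Of those, 483 and 213 were also called with all cells.

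Cells were also ranked by 3 of the score genes at a time, once by Ifit1, Ifi44 and Usp18 and once by Rsad2, Cmpk2 and Oasl2. The score genes themselves are not read here, since they were chosen together. Of genes outside the score, 11.1% rose in the first ranking and 12.8% in the second. They shared 1087 and 1113 of their rises with the 1188 genes of the full score. Both rankings used genes of the full score on the same carcinoma cells, so this overlap is no independent check.

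The level of interferon-stimulated transcripts in carcinoma cells was set against that in host myeloid cells of the same hashtag. Myeloid barcodes were taken as those with at least 1000 CPM of Tyrobp and under 20 CPM of Krt8, and both kinds were measured by the summed CPM of the antiviral effector list. In carcinoma cells the level was 4231, 4202 and 4161 CPM in hashtags 2, 8 and 3 and 3219 to 3731 CPM in the other 5. In myeloid cells it was 19173, 19624 and 18184 CPM in hashtags 2, 8 and 3 and 13338 to 16952 CPM in the other 5. Over 8 hashtags Pearson's r was 0.791 (exact permutation p = 0.0264) and Spearman's rho 0.738 (exact permutation p = 0.0458). This was the only such relation computed, so the adjusted p equals the raw one. Without hashtags 1 and 8, the 2 farthest from the median myeloid level, r was 0.864 (exact permutation p = 0.0375, n = 6). There rho was 0.829 (exact permutation p = 0.0583). With hashtags required at 90% of hashtag counts, 7 hashtags remained, r was 0.656 and the exact permutation p was 0.108. Leaving out hashtag 2, 6, 7 or 8 alone gave r of 0.734, 0.751, 0.794 and 0.728 with exact permutation p of 0.0655, 0.0552, 0.0569 and 0.0714. With 1 hashtag left out, rho ran from 0.607 without hashtag 3 (exact permutation p = 0.167) to 0.857 without hashtag 1 or 5 (exact permutation p = 0.0238). Carcinoma and myeloid cells of a hashtag share a brain sample, its unidentified treatment, its staining and the free RNA of the capture. The part of these in the relation was not tested. Hashtag 1, left out of the gene comparison, entered here with 38 carcinoma cells and 22 myeloid barcodes.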

How the data were processed

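Transcripts, 35 antibody tags and hashtags of 1 pooled capture of 8 hashed samples were analysed. The deposited values are raw UMI counts per gene, tag or hashtag and barcode, made by the authors before any normalization. The submitters' processing notes name Cell Ranger 3.1, Seurat 3.1.1 and the mm10 build, with no role or order. From these counts, cells were filtered and scored as the report states, and counts were summed per hashtag and group. The members and all gene lists were chosen with earlier results of these data known. Genes passing filterByExpr were tested with edgeR 4.0.16 (glmQLFit and glmQLFTest, TMM scaling, limma 3.58.1, R 4.3.3) with hashtag as block, Benjamini-Hochberg adjustment and a threshold of 0.05. The block pairs both groups of a hashtag, whose deviations from the group means correlated at 0.14 to 0.43. Tags were tested by an exact sign-flip permutation test over hashtags (scipy 1.17.1). Adjustment was planned over 35 tags and made over the 32 that had at least 10 counts in each group over the hashtags compared.

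Named genes were the 15 largest rises and 10 largest falls among genes past the threshold with at least 10 CPM in the higher group and 1 direction in every hashtag, up to 4 genes of each of 21 pathway lists, and 12 genes always shown. Other members of the lists, and Fabp4, Cygb and Hoxb13, were named after their values were seen. The 10 marker lists gave the levels of other cell types. The carcinoma marker list had 0 calls among 3 tested. Doublets were limited by the 70% hashtag share and the Tyrobp limit, no doublet caller was run, and doublets within 1 hashtag were not tested. On simulated counts with known changes over 10839 genes, 94.9% of changes of 1 and 100% of changes of 2 on the log2 scale were recovered in this comparison, with 8 false calls. The simulation held no difference between hashtags beyond their totals and no smaller changes. Called genes had median log2 fold changes of 0.38 (rises) and -0.23 (falls), sizes at which recovery was not simulated. The alternatives were other scalings, no block, no filter, DESeq2 1.42.0, single hashtags left out, other thresholds on the score, thinned counts, depth limits and stricter limits on immune transcripts. Promoter sequences came from RefSeq with build GRCm38.p6. The values of some members of the lists are not reported here.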

Additional observations from a re-analysis of the deposited data

Results flagged for a closer look

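For 6 of 115 sets of hashtag values 1 hashtag stood apart from the other hashtags, where chance flags about 1 in 20. As log2 ratios of interferon-high over interferon-low CPM, each with 1 added, hashtag 4 was highest for Ddx60 at 5.19 (next 4.54), for Phf11d at 5.44 (next 4.59), for H2-K1 at 1.16 (next 0.72) and for Bst2 at 1.82 (next 1.44). Hashtag 7 was highest for Lgals9 at 2.33 (next 1.81), and hashtag 5 was lowest for Ifngr2 at -0.31 (next 0.08).

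Signals outside the main measurement were also present. Carcinoma cells held 1346 UMIs of the mCherry sequence in 903 cells and 496 UMIs of the RFP sequence in 407 cells. That is 3.18 and 1.17 CPM, against 2.67 and 1.004 CPM in the other barcodes. Human hashtag rows held 1787 counts in carcinoma cells, or 0.400 per cell, against 2.08 per cell in the other barcodes.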

How the results depend on the processing

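Of 2517 values of the 103 named genes under the alternatives, 2393 kept their direction and side of the threshold, 78 no longer passed, 44 newly passed and 2 reversed. No gene called in both switched direction between the report's fit and any alternative run. The reversals came with only cells without a UMI of Tyrobp, Ptprc, Fcer1g and Lyz2 (51 interferon-high and 243 interferon-low cells, hashtags with at least 4 interferon-high cells, chosen after the data were seen), where Tmem267 was at 0.19 and Ldha at 0.0037 on the log2 scale. There 185 genes passed, 165 higher and 20 lower. At 10 interferon-high cells this could not be fitted. Under 20 CPM of those genes, also chosen after the data were seen, 726 passed, 498 higher and 228 lower. Without the replicate block 977 genes passed, 690 higher and 287 lower. With the hashtag share at 90%, 657 passed, 462 higher and 195 lower. After thinning 1437 passed, 584 lower. With no filter on low counts 1730 were lower. The limits on immune transcripts and the 90% share leave fewer cells, and thinning leaves fewer counts. What changed the number of genes passing was not tested for these fits, nor for those without the block or the filter. Leaving out 1 hashtag gave 893 to 1358 higher and 628 to 1183 lower genes, with 628 lower genes without hashtag 6. G2/M falls were 5 without the block, 5 at the 90% hashtag share and 3 under 20 CPM of immune genes, where 287, 195 and 228 of all genes fell. The correlation with myeloid cells was 0.656 at the 90% share and 0.728 to 0.899 with 1 hashtag left out. The share of cells at a score of 50 CPM was 41.4% and at 200 CPM 24.8%. For antibody tags, edgeR called 1. Depth limits what the low genes show: interferon transcripts were too few to test.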
